A study of Mus musculus with 6 samples.

Results

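The genes described here encode the protein subunits of the mitochondrial respiratory chain and ATP synthase, measured in testes of knockout and control mice. They were chosen by name: every array row paired with a single gene symbol that begins with Ndufa, Ndufb, Ndufc, Ndufs, Ndufv, Sdha, Sdhb, Sdhc, Sdhd, Uqcr, Cox4, Cox5, Cox6, Cox7, Cox8 or Atp5, without Ndufaf genes and pseudogenes. Of 19938 genes measured by such rows, 86 were members, and each was represented by the row with the highest mean over the 6 arrays. By role, 73 were subunits common to most tissues, 3 were testis isoforms, 5 were isoforms of other tissues, and 5 were assembly or supercomplex factors that share the prefixes. Members lay on 18 autosomes and on the X chromosome.

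The groups were 3 knockout testis samples and 3 control testis samples of mouse pups at postnatal day 15, when the first wave of spermatocytes is in meiotic prophase. Total RNA of whole testes was hybridised to Affymetrix Mouse Gene 1.0 ST arrays, 1 array per sample. The sources used here name neither the strain nor the alleles nor any driver of the deletion, and nothing says that replicates came from separate animals, so p-values measure the spread between these samples. Values are log2 signals after the authors' normalisation, and each difference is knockout minus control. The array medians over all 35556 rows, with or without a symbol, lay between 8.075 and 8.1. The lowest correlation between arrays was 0.995 both within and between the genotypes. The defining markers of the tissue were measured: Wt1, a Sertoli cell transcription factor, had log2 signals of 11.68, 11.70 and 11.71 in knockout testes and 11.64, 11.60 and 11.64 in control testes, and Sall4, a factor of spermatogonia, had 9.68, 9.67 and 9.60 in knockout testes and 10.04, 9.83 and 9.99 in control testes.

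The respiratory chain passes electrons from NADH through complex I, or from succinate through complex II, to ubiquinone, then through complex III and cytochrome c to complex IV, which reduces oxygen. Complexes I, III and IV pump protons across the inner membrane, and complex V, ATP synthase, uses the gradient to make ATP. Most subunits are encoded in the nucleus, and a few core subunits in the mitochondrial genome. Several complex IV subunits exist as paired genes, 1 of which is used widely while the other is used mainly in testis germ cells, striated muscle, lung or brown fat. Spermatogenic cells switch to such testis forms during meiosis, as they also do for cytochrome c.

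Promoters of respiratory chain genes are known for binding sites of ETS factors such as GABP (once called NRF2), of NRF1 and of YY1. Of the 86 members, 71 had a promoter window in the RefSeq table of build GRCm38.p6, 76 windows in all, each of 300 bases from 250 before to 50 after an annotated start. The windows were searched on both strands for the ETS core CCGGAAG, the NRF1 core GCATGCGC, the YY1 core AAGATGGC and the cyclic AMP response element TGACGTCA. The windows below are those of a testis and common isoform pair (Cox6b2 and Cox6b1), of a further testis isoform (Cox7b2) and of the pair of common subunits with an unadjusted p under 0.05 (Uqcr11 and Atp5k). They are written 5' to 3' along the gene, with matches in capitals.
Cox6b2 (chr7:4753045-4753344, minus strand): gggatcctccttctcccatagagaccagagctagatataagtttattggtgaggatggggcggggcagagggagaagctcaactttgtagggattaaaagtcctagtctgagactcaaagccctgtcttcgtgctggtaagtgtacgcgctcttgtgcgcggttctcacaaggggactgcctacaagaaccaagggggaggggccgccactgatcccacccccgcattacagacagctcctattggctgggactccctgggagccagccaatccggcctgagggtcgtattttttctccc
Cox6b1 (chr7:30626065-30626364, minus strand): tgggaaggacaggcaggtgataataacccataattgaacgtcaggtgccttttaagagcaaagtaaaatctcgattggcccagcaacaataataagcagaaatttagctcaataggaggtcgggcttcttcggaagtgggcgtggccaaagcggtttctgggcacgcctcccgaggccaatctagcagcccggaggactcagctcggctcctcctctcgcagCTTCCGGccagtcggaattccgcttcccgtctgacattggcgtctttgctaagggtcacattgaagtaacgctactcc
Cox7b2 (chr5:71548156-71548455, minus strand): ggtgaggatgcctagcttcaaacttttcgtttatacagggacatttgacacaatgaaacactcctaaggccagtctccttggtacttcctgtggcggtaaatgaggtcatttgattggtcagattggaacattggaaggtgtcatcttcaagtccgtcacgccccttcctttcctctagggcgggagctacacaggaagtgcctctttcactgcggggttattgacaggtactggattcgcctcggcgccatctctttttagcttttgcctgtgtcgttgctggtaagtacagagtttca
Uqcr11 (chr10:80406772-80407071, minus strand): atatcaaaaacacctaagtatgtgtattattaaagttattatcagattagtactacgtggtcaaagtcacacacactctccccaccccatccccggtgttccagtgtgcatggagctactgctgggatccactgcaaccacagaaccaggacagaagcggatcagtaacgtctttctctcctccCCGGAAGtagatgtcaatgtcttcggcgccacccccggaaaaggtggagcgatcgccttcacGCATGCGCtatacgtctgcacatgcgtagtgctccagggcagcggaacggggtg
Atp5k (chr5:108434350-108434649, minus strand): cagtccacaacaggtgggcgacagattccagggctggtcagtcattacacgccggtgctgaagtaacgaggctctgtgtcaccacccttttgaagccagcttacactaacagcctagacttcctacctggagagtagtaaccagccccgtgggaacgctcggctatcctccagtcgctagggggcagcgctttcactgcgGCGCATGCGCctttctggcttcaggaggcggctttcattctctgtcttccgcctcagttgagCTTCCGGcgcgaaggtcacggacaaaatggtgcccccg
The windows of Cox6b2 and Cox7b2 held none of the 4 motifs, which says only that these letters are not in these windows. In Cox6b1 the capitals mark an ETS core read on the other strand. In Uqcr11 they mark an ETS core and then an NRF1 core. In Atp5k the first run is an NRF1 core read on both strands, where the 2 matches overlap, and the second is an ETS core on the other strand.

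At least 1 of the 4 motifs was matched in 34 of the 67 windows of common subunits (50.7%), against 19.3% of the 19116 windows of all genes tested on the array and 14.7% of all 32851 windows in the table. For the ETS core the shares were 25.4% of common subunit windows and 12.1% of windows of tested genes. The NRF1 core was in 14.9% of common subunit windows and 3.79% of windows of tested genes, and the YY1 core in 14.9% and 3.19%. The cyclic AMP response element was in only 4 of the 67 common subunit windows (5.97%) and in 2.37% of windows of tested genes. Matches are descriptions of letters and not measured binding. Both an ETS core and an NRF1 core were present in 5 common subunits, and their differences between genotypes spread from -0.13 (Atp5k and Uqcr11) through -0.03 (Sdhb) to 0.00 (Cox6a1) and 0.02 (Atp5l). The median difference was 0.0067 both for the 17 common subunits with an ETS core and for the 45 without one. For the YY1 core it was -0.04 over the 10 common subunits with a match, which ranged from -0.08 to 0.01, and 0.01 over the 52 without one, which ranged from -0.13 to 0.12; this contrast was noticed among 4 motifs after the values were seen and was not tested.

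**Figure D1:**
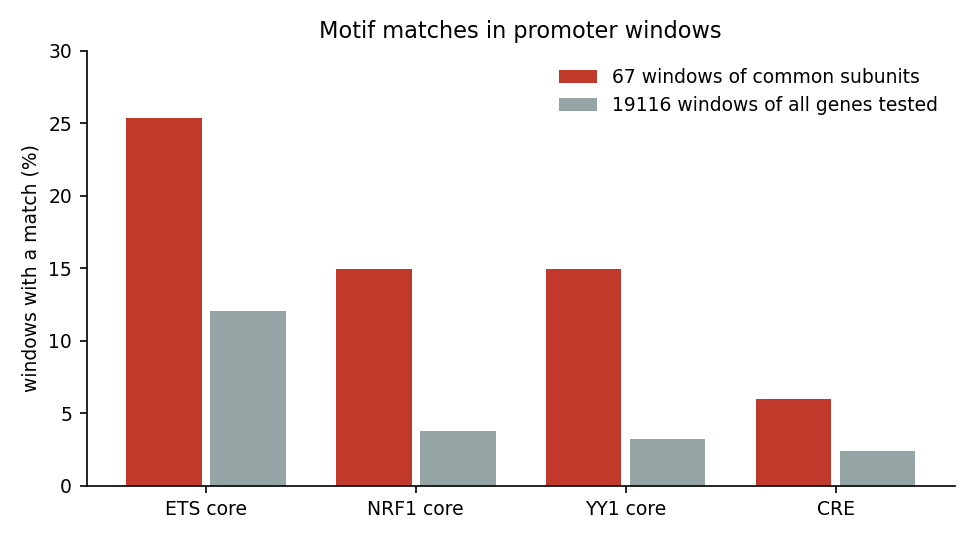
Share of promoter windows (%) with at least 1 match to each motif, for the 67 windows of common subunits and the 19116 windows of all genes tested. The common subunits have the higher share for every one of the 4 motifs, for example 25.4% and 12.1% for the ETS core. For the cyclic AMP response element (CRE) their share rests on 4 windows.

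No member passed the threshold of an adjusted p of 0.05 in the limma fit over all 21789 rows with 1 symbol, and the smallest adjusted p of a member was 0.363. Over all rows, 3 passed, which is 0.0138%. By unadjusted p under 0.05, Uqcr11 and Atp5k were lower in knockout testes (2 of 86, 2.33%), where 6.45% of all rows were lower, and Sdhaf3 and Cox6a2 were higher (2 of 86, 2.33%), where 4.1% of all rows were higher. With each array centred on its median over these 21789 rows instead, the counts were 0 lower and 4 higher. Of all rows, 4.65% were then lower and 6.90% higher. Knockout and control values did not overlap for 7 members that were lower in knockout testes (8.14%), against 8.6% of all rows, and for 5 that were higher (5.81%), against 6.73%. All of these shares were near or below those of all rows.

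The common subunits differed little between the genotypes. Of 73, 32 were lower, 37 higher and 4 equal in knockout testes, with a median difference of 0.0033, the same as over all rows (0.0033), and a range from -0.13 to 0.12. Differences were within 0.1 of 0 for 69 of them (94.5%), where 77.1% of all rows were. The 95% interval of the difference lay within 1.2-fold in either direction for 70 of the 73 (95.9%), where it did for 76.3% of all rows. The exceptions were Ndufb10, Ndufs5 and Uqcrb, and over all common subunits the intervals spanned from -0.36 to 0.28. The mean over the 73 common subunits was -0.01, 0.00 and 0.01 in the knockout arrays and 0.02, 0.00 and -0.02 in the control arrays, relative to the control mean. The genotypes therefore overlapped. These probes are bright: the median log2 signal was 11.2 for common subunits and 8.54 for all rows, although signals of different probes are not on a common scale. The shares above were not compared with those of rows of like signal, and compression of bright signals was not tested.

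**Figure D2:**
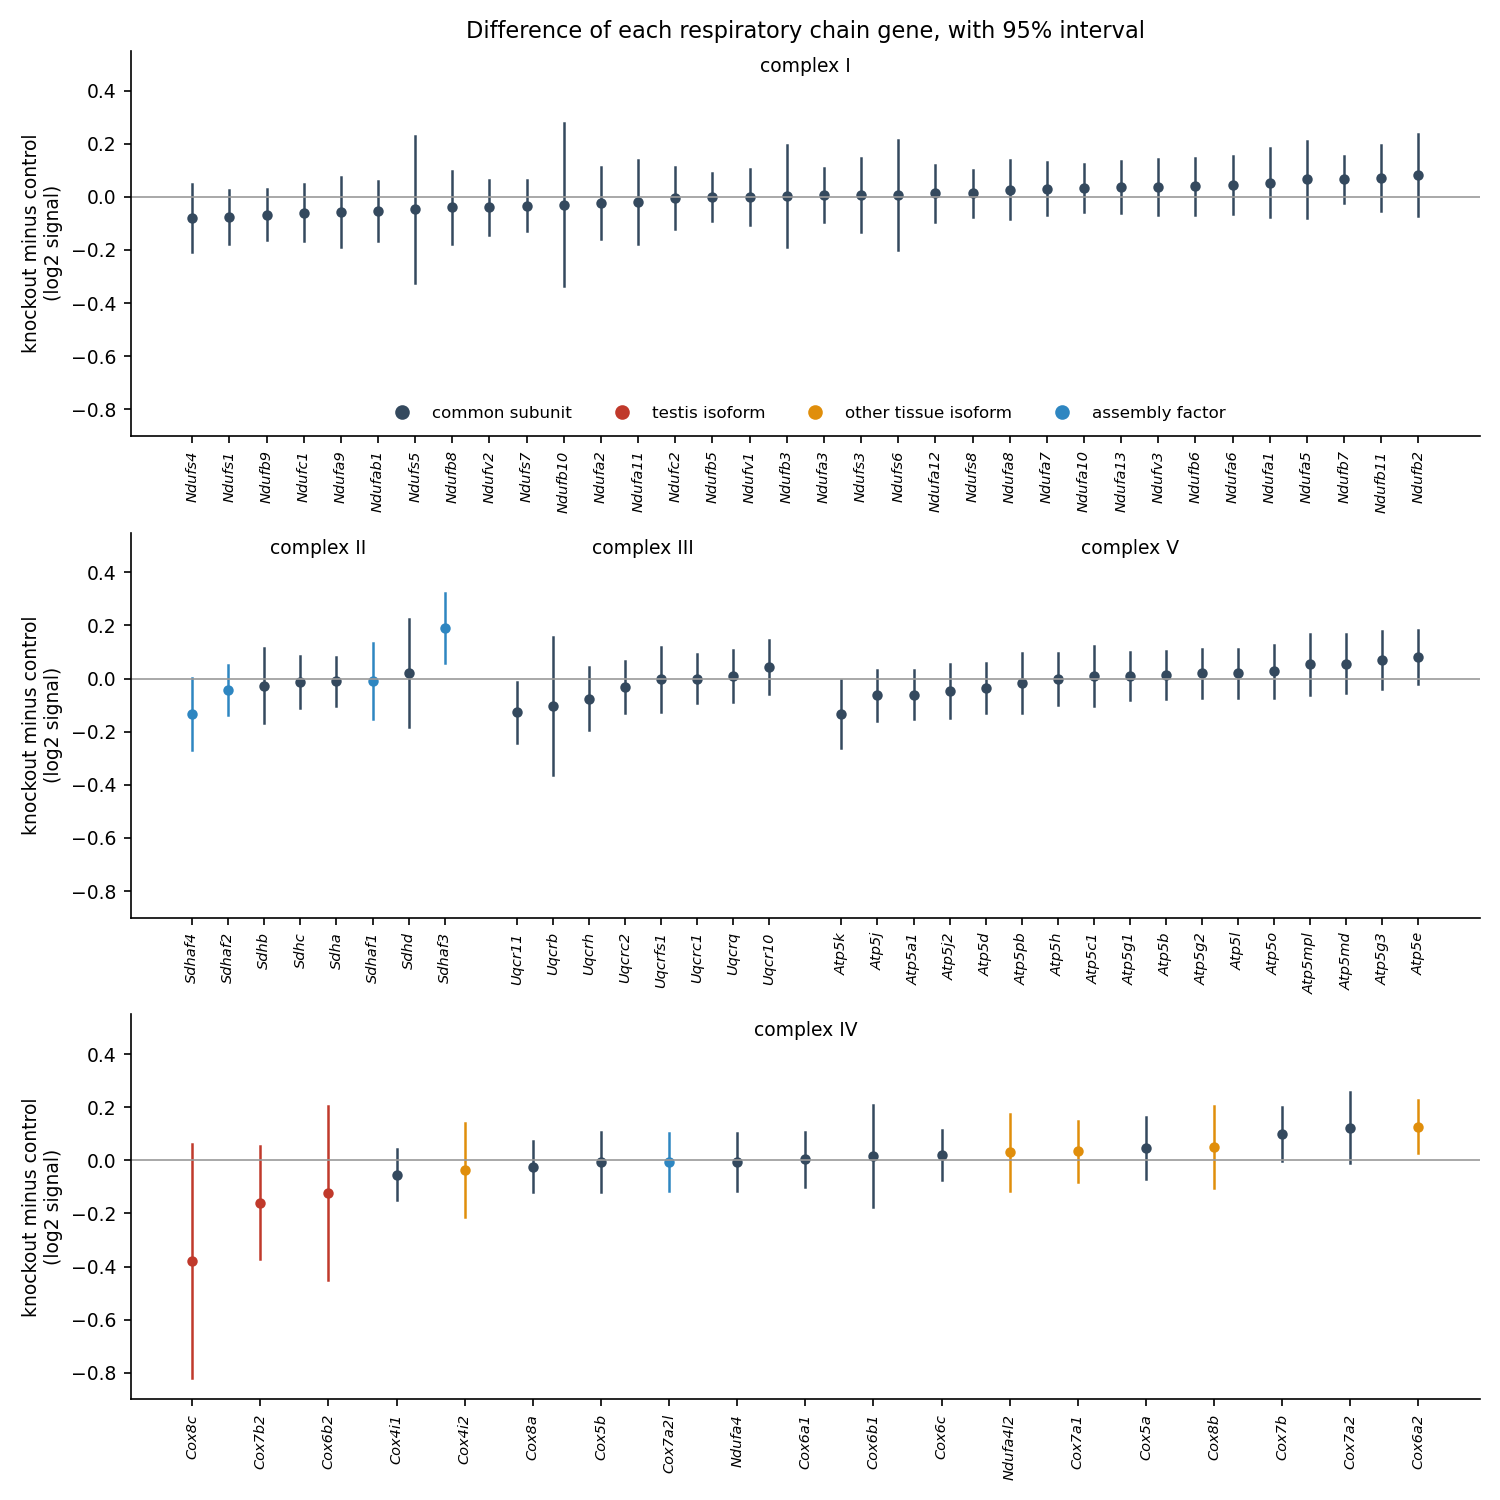
Difference of each of the 86 genes, knockout minus control in log2 signal, with its 95% interval from limma (n = 3 arrays per group), by complex and coloured by role. The common subunits lie between -0.13 and 0.12, while the 3 testis isoforms of complex IV, with the widest intervals of that complex, lie between -0.38 and -0.12.

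Complex I, the NADH dehydrogenase, had 34 common subunits, of which 14 were lower, 18 higher and 2 equal, with a median difference of 0.005 and a range from -0.08 to 0.08. The median was 0.03 for the 13 accessory Ndufa genes, 0.0033 for the 9 Ndufb genes, -0.03 for the 2 Ndufc genes, -0.03 for the 7 Ndufs genes and 0 for the 3 Ndufv genes. Ndufs1, which carries iron-sulphur clusters of the electron input arm, had log2 signals of 10.29, 10.30 and 10.28 in knockout testes and 10.42, 10.32 and 10.36 in control testes. The knockout values lay just below all control values, and the difference was -0.08 ± 0.04 (SE, limma adjusted p = 0.571). Ndufb9, an accessory subunit of the membrane arm, was 11.57 in each knockout array and 11.62, 11.68 and 11.61 in the control arrays, also without overlap (-0.07, adjusted p = 0.610). In Ndufb7, another membrane arm subunit, the order was the opposite, with 9.40, 9.41 and 9.41 in knockout testes against 9.32, 9.35 and 9.35 in control testes (0.07, adjusted p = 0.574).

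The flavoprotein Ndufv1, where NADH is oxidised, averaged 11.45 in knockout testes and 11.45 in control testes, a difference of 0 with a 95% interval from -0.11 to 0.11. Ndufb2, an accessory subunit, had the largest positive difference of complex I, 0.08 with an interval from -0.07 to 0.24. The 2 X-linked members of complex I were Ndufa1, at 9.12, 9.17 and 9.20 in knockout testes and 9.18, 9.01 and 9.14 in control testes, and Ndufb11, at 11.61, 11.58 and 11.69 in knockout testes and 11.61, 11.48 and 11.58 in control testes. Both overlapped between the genotypes, with differences of 0.05 and 0.07. The second row of Ndufb11, at 10.95, 11.11 and 11.14 in knockout testes and 11.07, 10.97 and 11.02 in control testes, also overlapped (0.05). The chromosome is that of the gene, and whether each row reads that locus was not tested. The wide intervals of some subunits came with single arrays that stood apart. Ndufb10 was 8.65, 8.66 and 8.63 in knockout testes, and 8.34 in control replicate 3 against 8.85 and 8.84 in the other control arrays. Ndufs6 was likewise lowest in control replicate 3, at 9.72, and Ndufs5 was lowest in knockout replicate 3, at 9.16 against 9.48 and 9.60 in the other knockout arrays.

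Complex II, succinate dehydrogenase, also serves the citric acid cycle. Its flavoprotein Sdha differed by -0.01, its iron-sulphur subunit Sdhb by -0.03, and its membrane anchors Sdhc and Sdhd by -0.01 and 0.02, all with overlap. Larger differences were found among its assembly factors. Sdhaf3, which helps mature the iron-sulphur subunit, had log2 signals of 9.94, 9.95 and 9.93 in knockout testes and 9.83, 9.64 and 9.78 in control testes. Each knockout value was above every control value, and the difference of 0.19 ± 0.06 (SE) was the largest positive one among the members (1.14-fold, adjusted p = 0.363, limma). Sdhaf4, which helps assemble the flavoprotein, was on the other side, with 7.94, 8.07 and 8.13 in knockout testes and 8.20, 8.14 and 8.20 in control testes (-0.13, adjusted p = 0.475). The second row of Sdhaf4 also differed without overlap, by -0.11. Sdhaf2, which helps attach the flavin, was 0.04 lower without overlap, and Sdhaf1 differed by -0.01.

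Complex III had 8 common subunits, 5 lower, 2 higher and 1 equal, with a median difference of -0.02. Uqcr11, its smallest subunit, had log2 signals of 9.40, 9.46 and 9.36 in knockout testes and 9.48, 9.59 and 9.53 in control testes. Its groups did not overlap, and the difference was -0.13 ± 0.05 (SE, adjusted p = 0.428, limma). The second row of Uqcr11 differed by only -0.02 (unadjusted p = 0.730 in the limma fit), the largest gap between rows of any member, 0.11. Uqcrh, the hinge subunit that contacts cytochrome c1, differed by -0.08 and Uqcr10 by 0.04, both with overlap. In Uqcrb, the ubiquinone-binding subunit, control replicate 2 stood apart at 11.97 against 11.64 and 11.51 in the other control arrays, while knockout values were 11.57, 11.58 and 11.66. The same array was the highest control in both further rows of Uqcrb, at 11.46 and 11.73. The large core subunits Uqcrc1 and Uqcrc2 differed by 0 and -0.03, and the Rieske protein Uqcrfs1 by -0.0033.

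Complex V had 17 common subunits, 6 lower, 10 higher and 1 equal, with a median difference of 0.01 and a range from -0.13 to 0.08. Atp5k, subunit e of the membrane part, which helps ATP synthase form dimers, had log2 signals of 8.95, 8.99 and 9.05 in knockout testes and 9.18, 9.17 and 9.04 in control testes. Knockout replicate 3 and control replicate 3 crossed by 0.01, so the groups overlapped, and the difference was -0.13 ± 0.05 (SE, adjusted p = 0.451, limma). Atp5e, the epsilon subunit of the central stalk, was 9.52, 9.59 and 9.5 in knockout testes and 9.43, 9.48 and 9.46 in control testes, a difference of 0.08 without overlap. Atp5j, coupling factor 6 of the outer stalk, was 12.02, 11.99 and 12.04 in knockout testes and 12.12, 12.07 and 12.05 in control testes, a difference of -0.06 without overlap. The catalytic head subunits Atp5a1 and Atp5b differed by -0.06 and 0.01, Atp5a1 without overlap. Atp5h, another stalk subunit, was the only member whose rows differed in sign, with -0.01, 0 and 0.01 over its 3 rows.

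**Figure D3:**
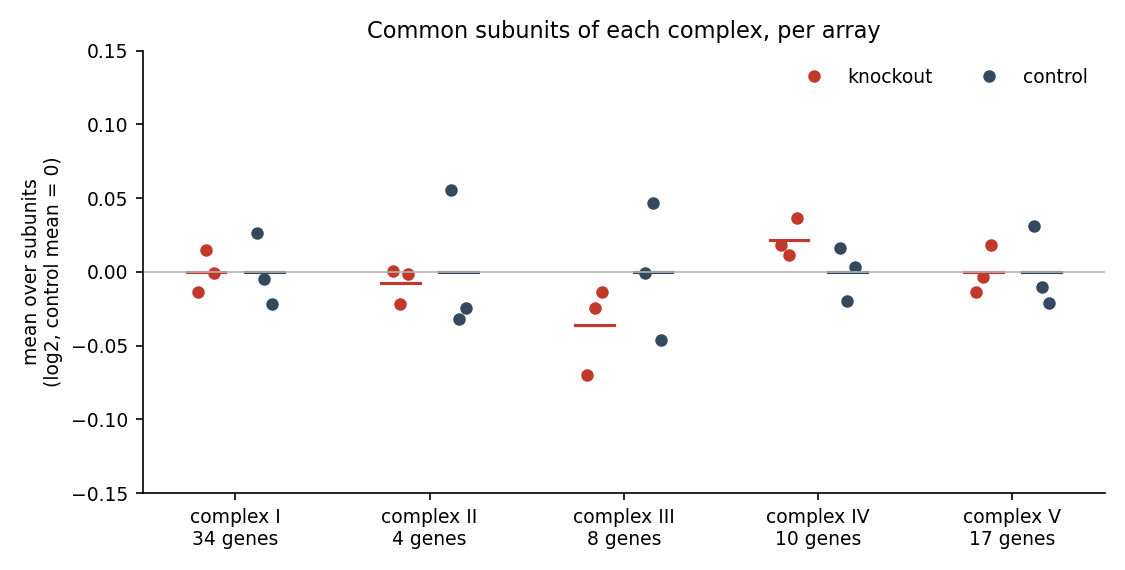
Mean log2 signal of the common subunits of each complex in each array, relative to the control mean, with knockout (red) left of control (dark); points are arrays and bars are group means. Knockout and control points overlap in every complex, and all lie between -0.07 and 0.06.

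Complex IV, cytochrome c oxidase, had 10 common subunits, 4 lower and 6 higher, with a median difference of 0.01 and a range from -0.05 to 0.12. Cox4i1, the regulatory subunit that contacts the catalytic core, differed by -0.05. Cox7a2, the widely used form of subunit VIIa, had log2 signals of 10.73, 10.78 and 10.86 in knockout testes and 10.59, 10.74 and 10.67 in control testes. The groups overlapped by 1 array, and the difference of 0.12 (adjusted p = 0.496, limma) was the largest positive one of the common subunits. X-linked Cox7b, the widely used form of subunit VIIb, was 11.50, 11.54 and 11.60 in knockout testes and 11.44, 11.47 and 11.43 in control testes, a difference of 0.10 without overlap (adjusted p = 0.480). The second row of Cox7b differed by 0.03 and its groups overlapped. The X chromosome is that of the gene, and whether either row reads that locus was not tested. Cox7a2l, which joins complexes III and IV in supercomplexes, differed by -0.01.

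All 3 testis isoforms of complex IV averaged lower in knockout testes, but none passed the threshold and each overlapped between the genotypes. Cox8c, the germ cell form of subunit VIII, had log2 signals of 9.34, 9.29 and 9.68 in knockout testes and 9.39, 10.08 and 9.98 in control testes. The low control value was that of replicate 1 and the high knockout value that of replicate 3. The difference was -0.38 ± 0.19 (SE), or 0.768-fold with a 95% interval from 0.566 to 1.04 (adjusted p = 0.527, limma). Cox7b2, the germ cell form of subunit VIIb, was 8.91, 8.89 and 9.07 in knockout testes and 8.96, 9.29 and 9.10 in control testes, a difference of -0.16 (adjusted p = 0.575). Cox6b2, the germ cell form of subunit VIb, was 10.17, 10.21 and 10.41 in knockout testes and 10.14, 10.70 and 10.32 in control testes, a difference of -0.12 (adjusted p = 0.802). For Cox6b2 both the highest and the lowest value were control values. Control replicates 1 and 2 moved all 3 differences. Without control replicate 2 the difference was -0.25 for Cox8c (adjusted p = 0.756, limma), -0.07 for Cox7b2 and 0.03 for Cox6b2. Without control replicate 1 it was -0.59 for Cox8c (adjusted p = 0.148, limma), -0.24 for Cox7b2 and -0.25 for Cox6b2.

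Whether a testis form and its common counterpart differed unequally was tested by their difference within each array, compared between the genotypes with a two-sided exact permutation test, which cannot go below p = 0.1 with 3 arrays against 3. In all, 9 isoform pairs were compared. Cox8c minus Cox8a was 0.36 lower in knockout testes (exact p = 0.3, adjusted over the 9 pairs 0.675), and Cox8a itself differed by -0.02. Cox6b2 minus Cox6b1 was 0.14 lower (exact p = 0.7, adjusted 0.9), and Cox6b1 differed by 0.02. Cox7b2 minus Cox7b was 0.26 lower without overlap (exact p = 0.1, adjusted 0.45), but with the second row of Cox7b it was 0.19 lower, with overlap (exact p = 0.2).

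**Figure D4:**
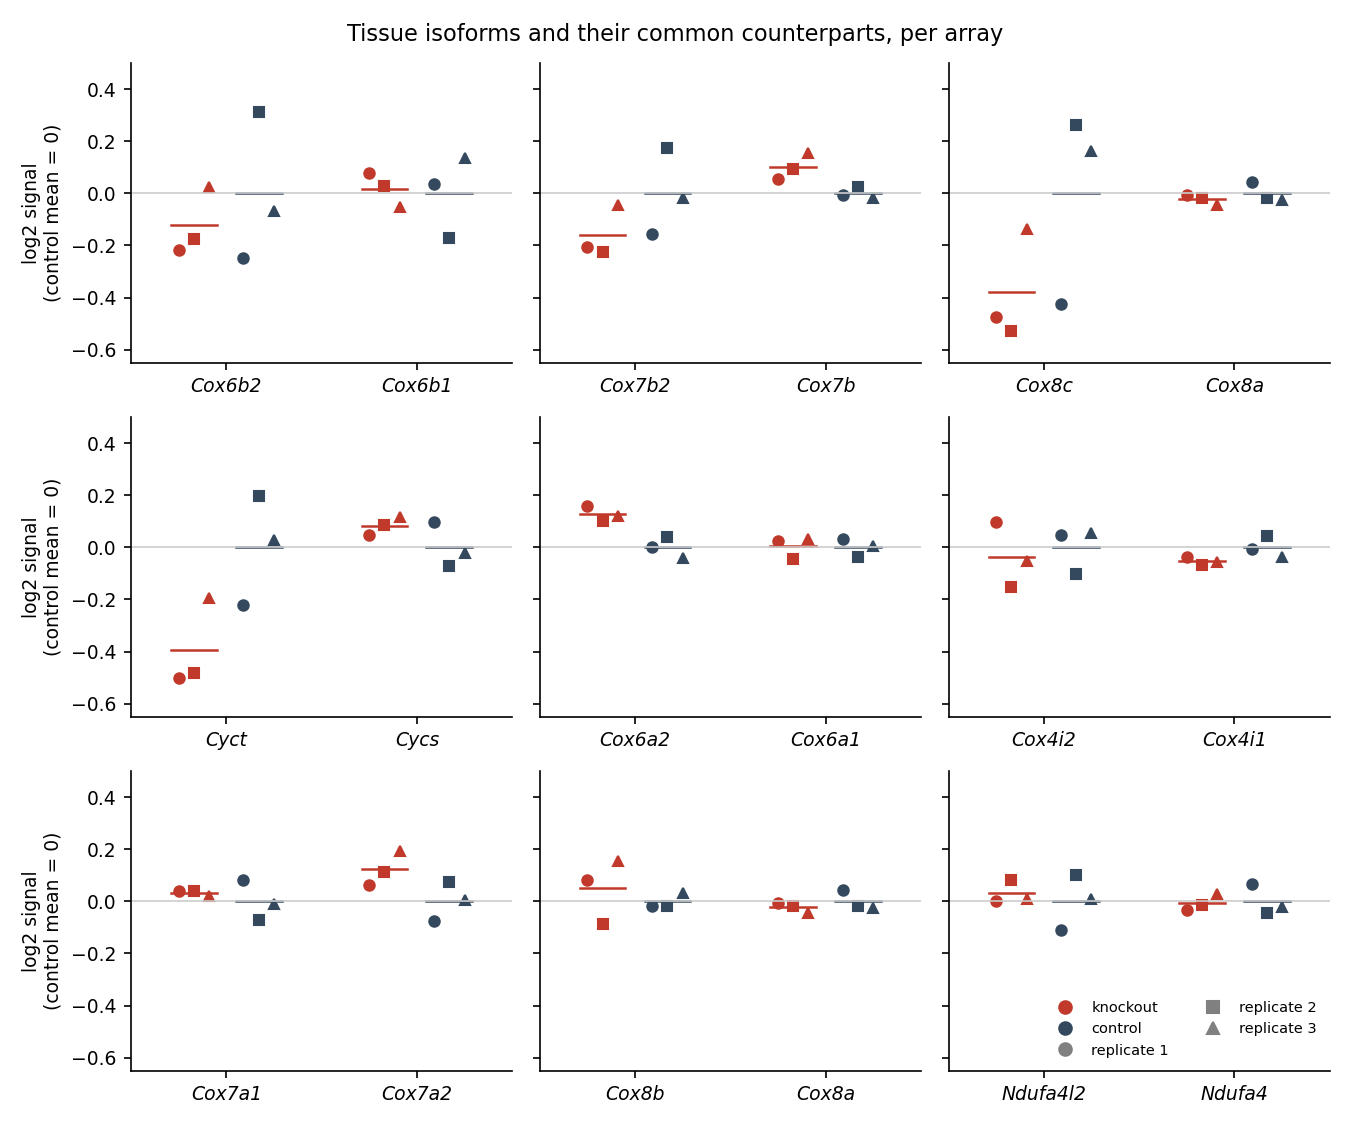
Log2 signal of each tissue isoform and its common counterpart in every array, relative to the control mean of that gene; knockout (red) stands left of control (dark), symbols give the replicate and bars the group means. Cox8c, Cox7b2 and Cyct are low in knockout replicates 1 and 2 and in control replicate 1, while the common forms stay within 0.2 of their control means.

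Cytochrome c, which carries electrons between complexes III and IV, has a testis form as well. Cyct, the testis form, had log2 signals of 8.99, 9.01 and 9.30 in knockout testes and 9.27, 9.69 and 9.52 in control testes, a difference of -0.39 ± 0.12 (SE, adjusted p = 0.376, limma) with overlap in 1 array. The somatic form Cycs was 12.60, 12.64 and 12.67 in knockout testes and 12.65, 12.48 and 12.53 in control testes, a difference of 0.08. Cyct minus Cycs was 0.48 lower in knockout testes (exact p = 0.2, adjusted over the 9 pairs 0.6). Cyc1, the cytochrome c1 subunit of complex III that the prefixes do not take in, differed by -0.02. Of the 3 genes of the cytochrome c list, 2 were lower and 1 higher, and none passed the threshold.

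Of the 3 testis isoforms, 2 shared an order of the arrays with Cyct. From high to low, Cox8c, Cox7b2 and Cyct ran from control replicate 2 through control 3, knockout 3 and control 1 to knockout 1 and 2, whichever of these came last. This order was noticed after the values were seen. It occurred in 185 of all 21789 rows (0.849%) and in 0 of the 73 common subunits. Cox6b2 did not have it, since control replicate 1 was its lowest array and knockout replicate 3 lay above control replicate 3. Of 15 markers of pachytene spermatocytes, cells in meiotic prophase, 5 had it (33.3%): Clgn, Crisp2, Ldhc, Piwil1 and Ybx2. The mean of the 3 testis isoforms was -0.30, -0.31 and -0.05 in the knockout arrays and -0.28, 0.25 and 0.03 in the control arrays, with the control mean set to 0. For the 15 pachytene markers this mean was -0.46, -0.41 and -0.24 in the knockout arrays and -0.29, 0.19 and 0.10 in the control arrays. Of these markers 14 were lower and 1 higher, with a median difference of -0.30; 9 were lower at an unadjusted p under 0.05 and none passed the threshold in the limma fit. Among them Zpbp2, a protein of the sperm head, differed by -0.52 (adjusted p = 0.303) and Ccna1, the meiotic cyclin A1, by -0.27 (adjusted p = 0.320). The part of spermatocyte content in the values of the testis isoforms was not tested, and in whole testes fewer cells of a type and less RNA per cell cannot be told apart.

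**Figure D5:**
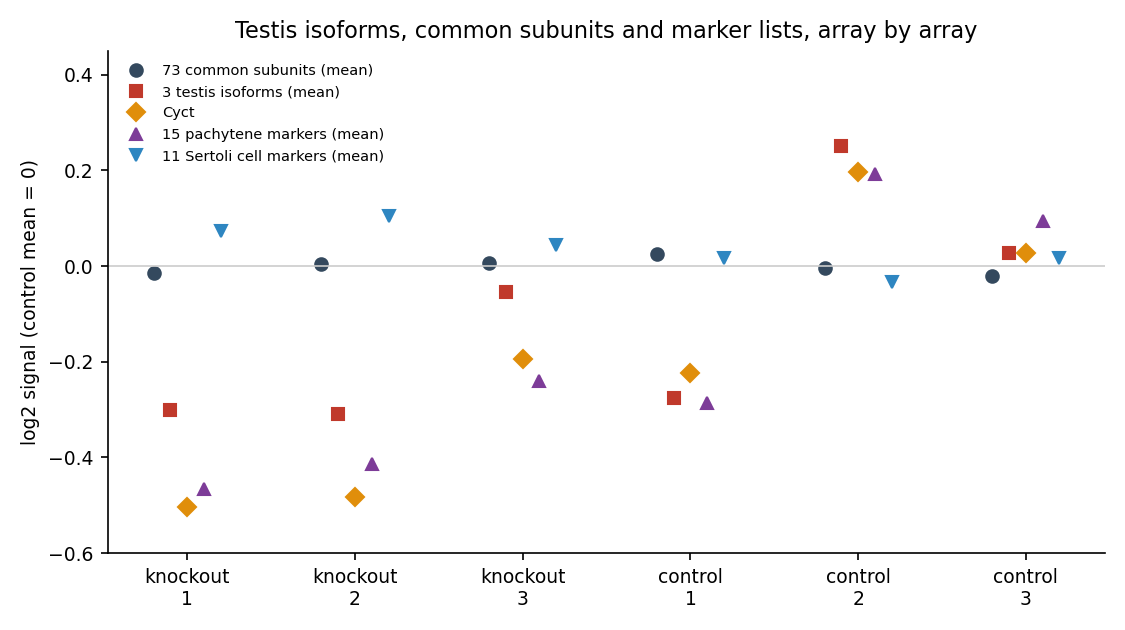
Mean log2 signal in each array, relative to the control mean, of the 73 common subunits, the 3 testis isoforms, Cyct, 15 pachytene markers and 11 Sertoli cell markers. The testis isoforms reach -0.30 and -0.31 in knockout replicates 1 and 2 and -0.28 in control replicate 1, whereas the common subunits stay between -0.02 and 0.02 in every array.

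Isoforms of other tissues differed by -0.04 to 0.13. Their median log2 signal was 7.94 (range 6.90 to 10.3), against 8.54 for all rows. Whether these rows stood above background was not tested. Cox6a2, the heart and muscle form of subunit VIa, had log2 signals of 8.04, 7.98 and 8.0 in knockout testes and 7.88, 7.92 and 7.84 in control testes. The groups did not overlap, and the difference was 0.13 ± 0.04 (SE, adjusted p = 0.389, limma). The common form Cox6a1 differed by 0.0033, and Cox6a2 minus Cox6a1 was 0.12 higher in knockout testes without overlap (exact p = 0.1, adjusted over the 9 pairs 0.45). Cox7a1, the heart and muscle form of subunit VIIa, differed by 0.03, and relative to Cox7a2 by -0.09 (exact p = 0.4, adjusted 0.72). Cox8b, the heart and muscle form of subunit VIII, differed by 0.05, and relative to Cox8a by 0.07 (exact p = 0.5, adjusted 0.75). Cox4i2, the lung form of subunit IV, differed by -0.04, and relative to Cox4i1 by 0.02 (exact p = 0.9, adjusted 0.9). Ndufa4l2, a hypoxia-induced relative of the complex IV subunit Ndufa4, differed by 0.03, and Ndufa4 itself by -0.01 (pair 0.04, exact p = 0.9, adjusted 0.9). All 4 overlapped between the genotypes. In the striated muscle list, 4 of 10 genes were lower, 5 higher and 1 equal, with a median difference of 0.0017; Actn3, a muscle actinin, differed by -0.19 and Tnnt3, a fast muscle troponin, by 0.08. In the adipocyte list, 3 of 7 were lower and 4 higher, with a median of 0.03; Ucp1, the uncoupling protein of brown fat, differed by 0.11 and Plin1, a lipid droplet protein, by 0.12.

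The proteins that build the complexes also stayed short of the threshold. Of 13 complex I assembly factors, 9 were lower and 4 higher, with a median difference of -0.01. Ndufaf3, an early assembly factor of complex I, had log2 signals of 10.34, 10.45 and 10.53 in knockout testes and 10.51, 10.94 and 10.78 in control testes, a difference of -0.30 ± 0.11 (SE, adjusted p = 0.404, limma). Ndufaf2, a late assembly factor, was 8.88, 8.94 and 9.16 in knockout testes and 9.0, 9.36 and 9.22 in control testes, a difference of -0.20 (adjusted p = 0.554). Both overlapped, and both had the array order described for Cox8c, as the only 2 of the 13. Beside the 4 Sdhaf members, 6 assembly factors of complexes II and III had a median of -0.02, with 4 lower and 2 higher. Of 16 complex IV assembly factors, 12 were lower and 4 higher, with a median of -0.02; Lrpprc, which stabilises mitochondrial messenger RNAs, differed by -0.08 without overlap and Cox19, a copper delivery factor, by -0.08 with overlap. Of 4 further complex V assembly and regulatory genes 3 were lower and 1 higher (median -0.02), and Atpaf1, which assembles the catalytic head, was 10.22, 10.20 and 10.19 in knockout testes and 10.30, 10.26 and 10.32 in control testes (-0.09, adjusted p = 0.482, limma).

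Of the 13 proteins encoded in the mitochondrial genome, 2 were measured here. The complex I subunit ND3 was 12.75, 12.74 and 12.83 in knockout testes and 12.84, 12.80 and 12.80 in control testes, and the complex IV subunit COX2 was 13.17, 13.18 and 13.19 in knockout testes and 13.17, 13.20 and 13.13 in control testes. Both overlapped, with differences of -0.04 and 0.01. Their rows were named by the platform annotation, and whether they read the mitochondrial genome itself was not tested. Of 17 genes of mitochondrial DNA upkeep, transcription and biogenesis, 7 were lower, 9 higher and 1 equal, with a median of 0.01; Tfb1m, an rRNA methyltransferase, differed by -0.09 and Gabpa, the DNA-binding subunit of GABP, by 0.08. Of 12 citric acid cycle genes 6 were lower and 6 higher (median 0.0033), and those with the smallest p were Dlst, of the oxoglutarate dehydrogenase complex, and Idh3g, an isocitrate dehydrogenase subunit, each 0.08 higher without overlap. None of these genes passed the threshold.

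Among 12 carriers and translocases of the mitochondrial membranes, 4 were lower and 8 higher, with a median difference of 0.01. Slc25a31, the germ cell form of the ADP/ATP carrier, was 11.25, 11.22 and 11.40 in knockout testes and 11.43, 11.42 and 11.39 in control testes (-0.12, adjusted p = 0.494, limma), with overlap in 1 array. Timm23, the channel of the inner membrane translocase, was 11.99, 12.06 and 12.07 in knockout testes and 12.15, 12.13 and 12.13 in control testes (-0.10, adjusted p = 0.475), without overlap. Of 7 genes of the cristae and the MICOS complex, which shapes the inner membrane, 2 were lower, 4 higher and 1 equal, with a median of 0.03. Apool, a MICOS subunit, was 8.79, 8.86 and 8.86 in knockout testes and 8.72, 8.56 and 8.64 in control testes, a difference of 0.20 ± 0.05 without overlap (SE, adjusted p = 0.347, limma). Chchd3, another MICOS subunit, differed by 0.07 with overlap.

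Markers of the other cell types of the testis moved between the genotypes as follows, and their part in the values of respiratory chain genes was not tested. Of 12 spermatogonial markers 10 were lower and 2 higher (median -0.11), with Gfra1, a receptor of undifferentiated spermatogonia, at 0.39 and Sall4 at -0.30. The mean of this list was -0.10 to -0.07 in knockout arrays and -0.05 to 0.05 in control arrays. Of 11 Sertoli cell markers 1 was lower and 10 higher (median 0.07), with Kitl, the ligand of the receptor Kit, at 0.28 and Wt1 at 0.07; the mean of the list was 0.04 to 0.10 in knockout arrays and -0.03 to 0.02 in control arrays. Of 6 Leydig cell markers 1 was lower and 5 higher (median 0.30), with Hsd17b3, a testosterone-forming enzyme, at -0.43 and Cyp11a1, the first enzyme of steroid synthesis, at 0.37. Of 7 peritubular myoid markers 5 were lower and 2 higher (median -0.02), with Des at 0.15 and Tagln at -0.15. All 9 macrophage markers were higher (median 0.15), with Cx3cr1 and C1qc at 0.16 each. Both measured erythrocyte markers were higher, Alas2 by 0.28 and Slc4a1 by 0.13. Their mean was 0.15 to 0.29 in knockout arrays and -0.12 to 0.08 in control arrays. No marker of these lists passed the threshold in the limma fit, where the smallest adjusted p was 0.235 (Kitl).

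The rows behind these values were checked for members with more than 1. Of the 86 members 18 had several rows, up to 6 for Atp5l, and the median range of the difference between rows of a member was 0.02. Respiratory chain genes have many processed pseudogenes, so rows of a member may share signal with near-identical copies, and their values are uncertain to that extent. A further 6 rows with several symbols, at least 1 of which begins with a member prefix, were left out. Whether those symbols are among the 86 members was not checked.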

How the data were processed

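Values were made with RMA in Affymetrix Expression Console, per the submitters' processing notes, and the deposited values are log2 signals, 1 per transcript cluster and array. The sources used here name no version and no genome build for them. RMA includes quantile normalisation, which hides a shift common to all transcripts, and differences of dim clusters are compressed. Background signal and hybridisation batches are not known, and precision is limited by the 3 arrays per group.

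Rows were named by the platform annotation: of 35556, 21789 had 1 symbol, 1621 several and 12146 none, and only the first were tested. The genotypes were compared by limma 3.58.1 under R 4.3.3 (lmFit, then eBayes, without covariates; 4 residual and 3.24 prior degrees of freedom), with Benjamini-Hochberg adjustment over all rows tested. The script was tested on simulated data with added differences larger than that of any member. This test says nothing about finding differences as small as those of the members. Isoform pairs were compared with exact permutation tests (scipy 1.17.1). At most 4.12% of values were identical in 2 arrays, so none was a repeat of another. All 86 members matched the gene table of assembly GRCm38.p6.

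The members and the 19 lists were chosen with earlier results of these data known. Text names the 3 members with the smallest p in each complex, the 5 with the largest differences in each direction, tissue isoforms with their counterparts, X-linked members, members whose rows differ in sign, and the 2 genes with the smallest p of each list; any other member named was chosen after its values were seen. Alternatives were a replicate block, an intensity trend with robust prior, a filter that left out the dimmest 25% of rows, all rows tested, median centring and leaving out each array. The targeted gene is not reported here, and the genotype labels were taken as given.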

Additional observations from a re-analysis of the deposited data

How the results depend on the processing

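No member passed the threshold under any of the 11 alternatives, with the smallest adjusted p, 0.148 for Cox8c, without control replicate 1. The count of members lower at an unadjusted p under 0.05, 2 in the main fit, was 1 with all rows tested and 0 with arrays centred on their medians. The count of members higher, also 2, was 4 with an intensity trend and robust prior and 4 with centred arrays. Leaving out 1 array gave 0 to 3 members lower (0 without knockout replicate 1 or control replicate 2, 1 without knockout replicate 2) and 1 to 3 members higher (1 without control replicate 3). Centring moved the median difference of the members to 0.020, that of the common subunits to 0.023 and that of all rows to 0.023. Leaving out 1 array moved the median of the members between -0.0067 and 0.017.

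Cox6b2 minus Cox6b1 ranged from -0.282 to 0.103 when 1 array was left out, positive without control replicate 2. With 1 array left out, Cox8c minus Cox8a ranged from -0.592 (without control replicate 1) to -0.217 (without control replicate 2), and Cox7b2 minus Cox7b from -0.335 to -0.185 without the same arrays. With the second row of Cox7b, an alternative chosen after seeing the data, Cox7b2 minus Cox7b was -0.19. No other alternative was run for the pairs beside the replicate block. Many of the 67 named genes were named for a small p or a large difference. Only centring and leaving out an array could change a sign, since the other settings leave each difference as it is. Over the alternatives of these genes, 720 of 735 values kept direction and side of the threshold and 14 changed sign. The remaining 1, Zpbp2 without control replicate 1 (adjusted p = 0.0458, limma), newly passed. Of those that changed sign, Ndufa4 was 0.013 with centred arrays. With 1 array left out Ndufa4 ranged from -0.028 to 0.027, Cox4i2 from -0.103 to 0.022, Cox6a1 from -0.015 to 0.028, Cox6b1 from -0.070 to 0.085, Cox6b2 from -0.247 to 0.033, Cox7a1 from -0.0017 to 0.073, Cox8b from -0.0017 to 0.118, Ndufa4l2 from -0.025 to 0.080 and COX2 from -0.0050 to 0.030. The cause was not tested. The numbers of rows past the threshold were 0 to 7 of those tested in the other settings and 52 without control replicate 1.

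Replicate numbers were not taken to pair the samples, since no label says that a number marks a shared litter or day. Deviations of same-numbered arrays correlated at 0.17, -0.05 and 0.17, and 2 of 3 knockout arrays correlated best with their own number. With the replicate block no member and 0 of 21789 rows passed (3 without it; 6.57% were lower and 3.93% higher at an unadjusted p under 0.05), and the members lower and higher by unadjusted p numbered 2 and 2. In this balanced design a block leaves each difference between the groups as it is, so only the p of the isoform pairs could move. Over the 3 blocks, with an exact sign-flip test that cannot go below 0.25, it was 0.75 for Cox6b2 minus Cox6b1 (-0.14), 0.25 for Cox7b2 minus Cox7b (-0.26) and 0.5 for Cox8c minus Cox8a (-0.36).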
